A study of Homo sapiens with 8 samples.

Results

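The genes of the DNA replication fork and of S phase were followed in A549 cells, a human lung adenocarcinoma line, after treatment with interferon-γ (IFN-γ) and the kinase inhibitor AX-0085. The 48 genes were chosen by name, from the rows of the raw count matrix whose Ensembl identifiers map to their symbols, out of 60664 genes in the matrix. Of the 48, 46 had at least 1 count and 45 passed edgeR's expression filter, which kept 15066 genes in all. RNA was sequenced from 8 libraries, 2 for each of 4 groups. Untreated cells received neither agent. The IFN-γ group received 20 ng of the cytokine as the labels state it, without a volume. The AX-0085 group received the compound at 0.5 μM, and the remaining group received both. IFN-γ was given 24 h before the time at which AX-0085 was added, and RNA was taken 24 h after that, so cells with IFN-γ had been exposed to it for longer than to AX-0085. All groups share the same line and culture medium, and neither the labels nor the study's methods mention a solvent control. The study's text speaks of duplicate cell samples for each group but not of separate cultures or days, so the p-values measure the spread between these libraries only, which may be technical.

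Eukaryotic DNA replication begins with the loading of the MCM helicase onto origins by ORC, CDC6 and CDT1 in G1. In S phase, CDC45 and GINS join MCM to form the active helicase, primase and polymerase α lay down primers, and the polymerases δ and ε extend them on a PCNA clamp loaded by RFC, while RPA covers single strands and LIG1 seals the lagging strand. Most genes of this machinery are transcribed around the G1-S boundary under E2F factors, and their summed mRNA level is widely used as a sign of proliferation. IFN-γ is a cytokine of T cells and natural killer cells and is known to slow the growth of many epithelial tumour lines.

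Promoter sequences of 40 of the 48 genes were at hand, as 52 RefSeq windows (GRCh38.p14) that run from 250 bases before to 50 bases after a transcription start. Windows were searched on both strands for 4 spellings of the E2F motif, TTTCCCGC, TTTCGCGC, TTTGCCGC and TTTGGCGC, of which the last can overlap the second on the other strand. At least 1 spelling was found in 22 of the 52 windows, or 42.3% (exact binomial 95% interval from 28.7% to 56.8%, which covers counting error only), and in 21 of the 40 genes. Among all 35116 windows of the same length the share was 3.31%. The sequences shown are the stretches around the match in genes whose values are described below, 5′ to 3′ on the strand of the gene, with the match in capitals. MCM3 is at chr6:52284882-52284956 (minus strand), MCM6 at chr2:135876482-135876635 (minus), PCNA at chr20:5126634-5126721 (minus), CDT1 at chr16:88803714-88803788 (plus) and TYMS at chr18:657574-657652 (plus), all upstream of the gene's annotated span, and LIG1 at chr19:48170440-48170469 (minus) and UHRF1 at chr19:4909476-4909500 (plus) lie inside the gene's own annotated span.
MCM3: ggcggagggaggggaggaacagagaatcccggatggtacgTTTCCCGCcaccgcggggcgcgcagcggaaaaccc
MCM6: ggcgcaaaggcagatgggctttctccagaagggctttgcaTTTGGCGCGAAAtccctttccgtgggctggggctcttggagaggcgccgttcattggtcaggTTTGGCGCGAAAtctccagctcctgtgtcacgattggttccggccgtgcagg
PCNA: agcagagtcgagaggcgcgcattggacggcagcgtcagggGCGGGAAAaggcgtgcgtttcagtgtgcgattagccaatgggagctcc
CDT1: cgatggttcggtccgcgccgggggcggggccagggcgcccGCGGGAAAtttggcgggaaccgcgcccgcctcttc
TYMS: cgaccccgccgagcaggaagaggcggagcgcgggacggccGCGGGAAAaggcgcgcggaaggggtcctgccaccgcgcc
LIG1: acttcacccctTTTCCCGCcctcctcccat
UHRF1: gccgagttttcGCGGGAAAaaaatc
In MCM6 the capitals mark pairs of overlapping matches on opposite strands, and its window holds 4 matches in all. A CCAAT box (CCAAT) was found in 63.5% of the members' windows, 76.7% of those of a list of 30 mitosis genes and 34.6% of all windows. The CHR element (TTTGAA or TTCGAA), known from promoters of G2 and mitosis genes, was in 3.85% of the members' windows, 76.7% of those of the mitosis list and 16.4% of all. These are matches of letters in short windows and do not show binding.

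Total counts ranged from 20672828 to 29978251 per library, TMM factors from 0.916 to 1.04, and the share of counts in mitochondrial genes from 1.71% in an IFN-γ library to 5.73% in an AX-0085 library. A CPM value below is a count scaled to a common library size, with TMM factors applied. In a fit of all 8 libraries, edgeR's quasi-likelihood test gave a Benjamini-Hochberg-adjusted p over the 15066 genes, termed the edgeR adjusted p here. A gene is said to rise, fall or pass the test where that p is under 0.05, and is termed called where its fold change is also over 2. Scaling by library size alone in place of TMM moved the median log2 fold change of all genes by -0.12 with IFN-γ and by 0.12 for AX-0085 on top of IFN-γ. The summed level of 7 epithelial and A549 markers was between 5245 and 13556 CPM in every library, lower with IFN-γ (5769 and 5245) than without treatment (13085 and 13556). With IFN-γ, KRT8, KRT18, KRT19, EPCAM, CDH1 and AKR1B10 were lower, while AKR1C1, at 1043 and 897 CPM, overlapped untreated cells (1006 and 1005). EPCAM was at no more than 8.62 CPM in any library. CDH1 was higher with both agents (81.8 and 80.7 CPM) than in untreated cells (36.2 and 35.8). Markers of leukocytes, endothelium and fibroblasts summed to between 3.01 and 11.2 CPM, most of it COL1A1, with CD3E at 0 counts in every library and PTPRC at no more than 1. The leukocyte marker CD68 also had 0 counts, but 100% of its exon bases lie inside other genes, so these counts say nothing of its expression. For LYZ, another leukocyte marker, that share is 42.5%. The part of the marker levels and of the mitochondrial share in the results below was not tested.

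Not every member could be measured. GINS4, a subunit of the GINS complex, and POLA2, the accessory subunit of polymerase α, had 0 counts in all 8 libraries. FEN1, the flap endonuclease of Okazaki fragment processing, had between 1 and 9 counts in a library and did not pass the filter. In GENCODE 44, 100% of the exon bases of GINS4, 99.9% of those of POLA2 and 96.9% of those of FEN1 lie inside the span of another gene. Of 1843 protein-coding genes that lie wholly inside another gene, 95.9% had 0 counts in every library, against 18.8% of 6605 that touch no other gene. The counts of these 3 members therefore say nothing of their expression. The same holds in part for MCM8, which shares 96.1% of its exon bases with the span of another gene, and for TYMS with 55.7% and PRIM1 with 47.1%, whose counts come from the rest of the gene or cannot be told apart from those of the neighbour. Another 7 members have between 10.6% and 27.3% of their exon bases inside another gene, among them MCM2, POLD1 and LIG1. The annotation release and strand setting used for the counting are not given in the sources used here.

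The replication genes were at their highest in untreated cells, and each treatment lowered nearly all of them. Together the 48 genes held 5547 and 5789 CPM in the untreated libraries, against 2608 and 2598 under AX-0085, 2504 and 2431 under IFN-γ, and 2220 and 2227 under the combination. The untreated group had the highest mean in 41 of the 45 genes tested, and in 40 both of its libraries lay above all 6 treated libraries. Neither count was made over all genes. Against untreated cells, the share of all genes lying lower without overlap was 43.3% for IFN-γ, 37.4% for AX-0085 and 39.1% for both. The median member was at 48.1% of its untreated level with AX-0085, 44.4% with IFN-γ and 41.3% with both. With both agents the sum was thus below that with either, although the differences among the 3 treated groups were far smaller than those from untreated cells. The lowest mean was that of both agents in 20 genes, of IFN-γ in 16 and of AX-0085 in 9. In such bulk samples, fewer cells in S phase and less of these mRNAs per cell cannot be told apart.

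**Figure D1:**
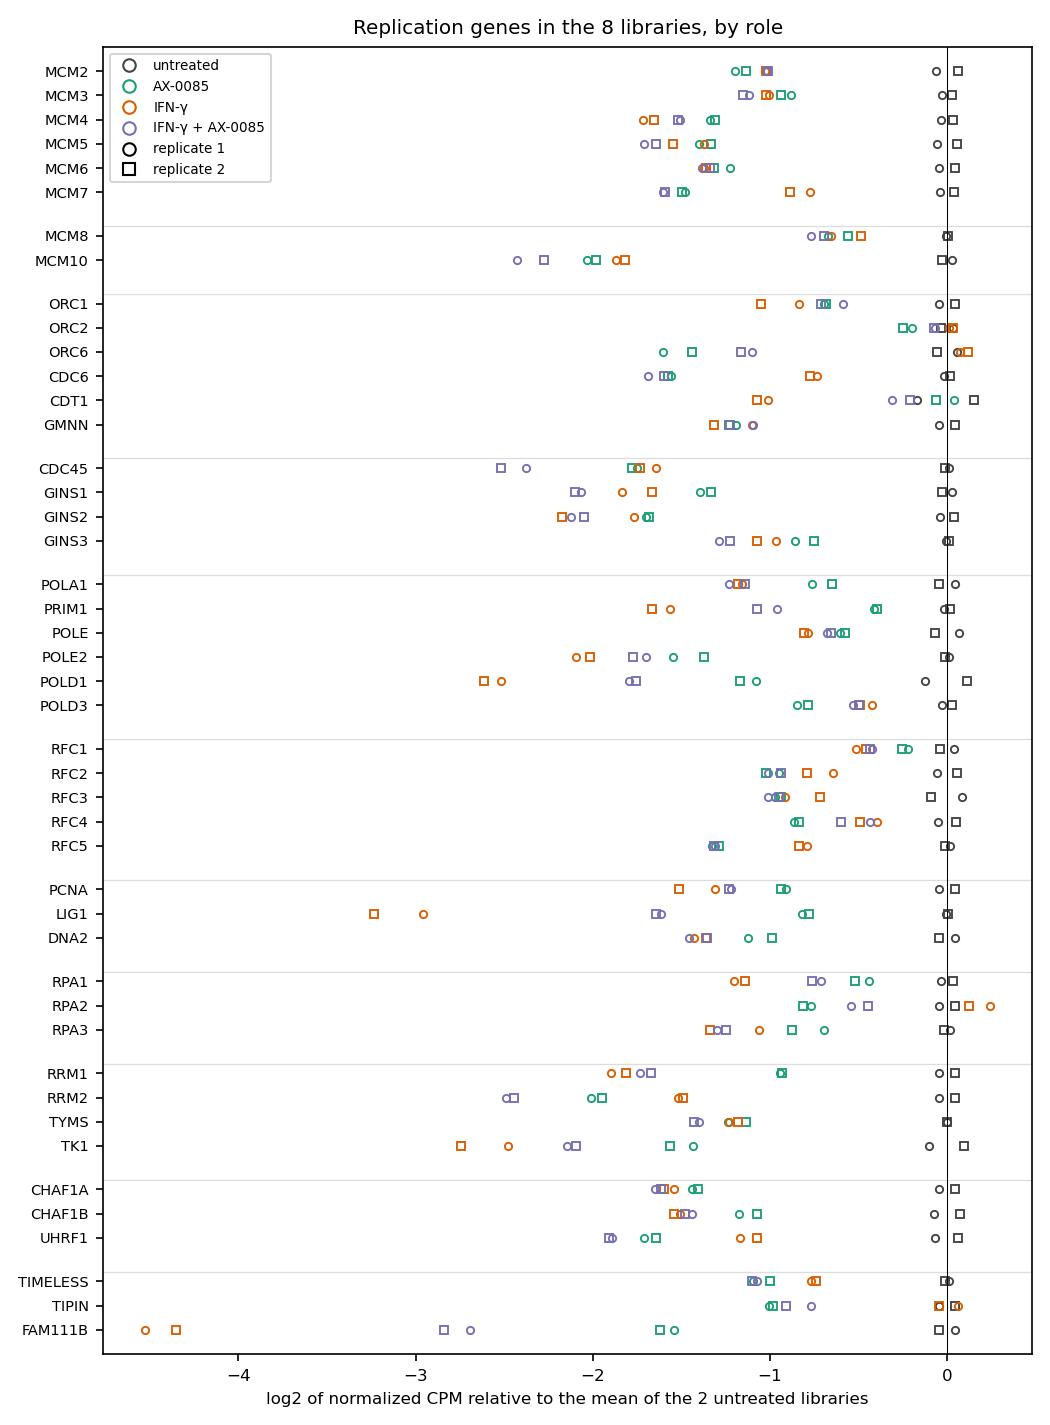
The log2 of each library's CPM relative to the mean of the 2 untreated libraries (x axis) for the 45 replication genes tested, grouped by role (y axis), with colours for the 4 groups and circles or squares for replicate 1 or 2. The 2 libraries of a group lie close together. In 40 genes, a count not made over all genes tested, both untreated libraries lie above all treated ones. ORC6, ORC2, TIPIN and RPA2 are the genes that IFN-γ left near or above the untreated mean.

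With IFN-γ against untreated cells, 29 of the 45 genes were called lower and none higher. Over all genes tested 17.2% were called lower and 10.3% higher. By the adjusted p alone, 41 members fell, against 36.0% of all genes, and 1 rose. Both IFN-γ libraries lay below both untreated ones in 41 members and above them in 2, as they did in 43.3% and 37.8% of all genes. The median log2 fold change was -1.17 over the members and -0.06 over all genes, with a range from -4.42 in FAM111B to 0.18 in RPA2. With AX-0085 alone, 24 of 45 were called lower and none higher, where 5.62% of all genes were called lower and 6.41% higher. The test was passed by 44 members, all lower, against 26.6% of all genes, and the same 44 did not overlap with the untreated group, against 37.4% lower without overlap among all genes. The AX-0085 changes had a median of -1.05 against 0.01 and a range from -2.01 in MCM10 to -0.01 in CDT1. The comparisons share the untreated libraries. When single libraries were left out, 4 calls with IFN-γ close to the fold threshold ended. Those of MCM2, MCM3, GINS3 and CDT1 ended without IFN-γ replicate 2 (values between -0.98 and -0.92) and without replicate 1 of both agents (between -0.996 and -0.971). They also ended without untreated replicate 1 for GINS3 and MCM3 (-0.985 and -0.998) and without untreated replicate 2 for CDT1, MCM2 and MCM3 (-0.87, -0.96 and -0.98). With AX-0085 the call of DNA2 ended without AX-0085 replicate 1 or untreated replicate 1, at -0.99 in each.

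The 6 subunits of the MCM2 to MCM7 helicase, the motor that unwinds the parental strands, fell in all 3 treated groups. Their summed level was 1697 and 1795 CPM in untreated cells, against 713 and 709 under AX-0085, 788 and 760 under IFN-γ, and 644 and 648 under the combination. For MCM4, the untreated libraries held 380.3 and 398 CPM, the AX-0085 libraries 154 and 157, the IFN-γ libraries 118 and 124 and those given both agents 137 and 136. Levels of MCM7 were 525 and 553 CPM without either agent, 193 and 191 after AX-0085, 315 and 291 after IFN-γ and 178 and 179 after the pair. Both subunits fell with either agent and the untreated libraries did not overlap the others, but they ranked the agents differently. MCM4 changed on the log2 scale by -1.68 (standard error 0.06, edgeR adjusted p = 2.99e-11) with IFN-γ and by -1.33 (standard error 0.05, edgeR adjusted p = 1.49e-09) with AX-0085. MCM7 changed by -0.83 (standard error 0.06, edgeR adjusted p = 3.73e-08) with IFN-γ and by -1.49 (standard error 0.06, edgeR adjusted p = 1.38e-09) with AX-0085. The other 4 fell by between 1.02 and 1.46 with IFN-γ and between 0.91 and 1.37 with AX-0085. Per kilobase of exon outside other genes, MCM7 was the most abundant subunit, with 34.4% and 34.2% of the summed level of the 6 in untreated cells. Its share was 42.2% and 40.5% with IFN-γ, 29.5% in both AX-0085 libraries, and 29.7% in both libraries with the 2 agents. MCM4 went from 11.5% and 11.3% to 7.29% and 7.92% with IFN-γ and was at 10.5% and 10.4% with both. By this length, which joins all annotated exons of a gene, the levels of the 6 subunits differed in every group. The order of the subunits depends on that length, which is 9852 bases in MCM4 and 3645 in MCM3. Among the groups, the IFN-γ libraries had the most MCM7 relative to the rest.

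**Figure D2:**
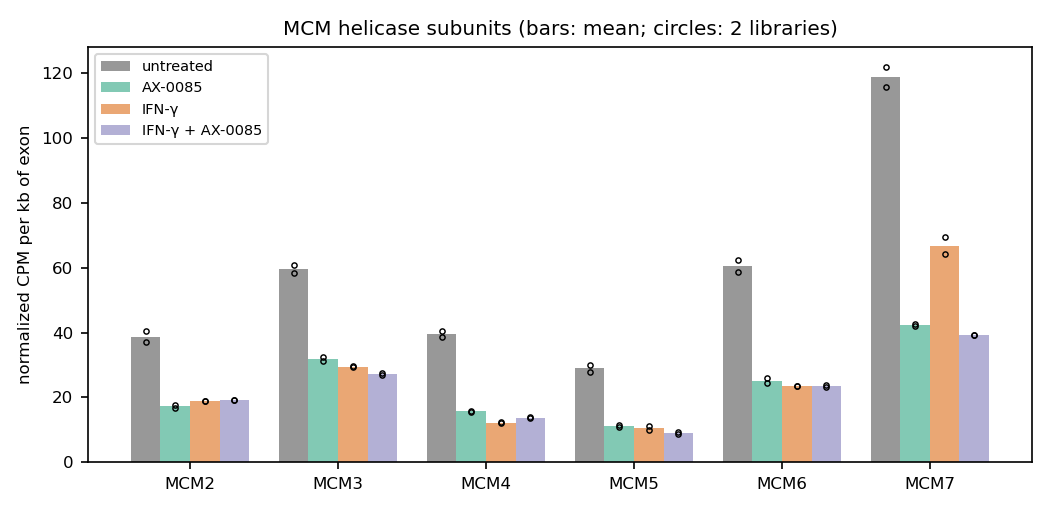
Mean CPM per kilobase of exon outside other genes (y axis) of the 6 MCM helicase subunits in the 4 groups, with circles for the 2 libraries. MCM7 stood highest in every group, and the MCM7 bar with IFN-γ lies between the untreated and AX-0085 bars, while for MCM4 the IFN-γ bar is the lowest.

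MCM10, which is needed for the activation of the loaded helicase, had the largest fall of all members with AX-0085. MCM10 was measured at 91.5 and 88.2 CPM without treatment, at 21.9 and 22.7 under AX-0085, at 24.6 and 25.5 under IFN-γ and at 16.7 and 18.6 under the combination. The 4 groups did not overlap, with the untreated libraries highest and those with both agents lowest. Its log2 fold change was -1.84 (standard error 0.08, edgeR adjusted p = 2.79e-10) with IFN-γ and -2.01 (standard error 0.08, edgeR adjusted p = 1.34e-09) with AX-0085. MCM8, a helicase of recombination rather than of the fork, was at 3.47 and 3.50 CPM in untreated cells and fell by 0.56 with IFN-γ and by 0.61 with AX-0085, the least precise of the members with a standard error of 0.17 in each. The IFN-γ change of MCM8 missed the test without IFN-γ replicate 1 (-0.47, edgeR adjusted p = 0.0659) and without untreated replicate 1, and its AX-0085 change missed it without AX-0085 replicate 1.

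The origin recognition and licensing genes differed among themselves in their response. Of 6 tested, 2 were called lower with IFN-γ and 3 with AX-0085, with GMNN called in each. For CDT1, the untreated libraries held 43.8 and 54.6 CPM, the AX-0085 libraries 50.6 and 47.0, the IFN-γ libraries 24.4 and 23.4 and those given both agents 39.6 and 42.6. CDT1 (ENSG00000167513, chr16:88803789-88809258, plus strand in GRCh38), the licensing factor that brings MCM to origins, was lower in both IFN-γ libraries than in any other and overlapped between untreated and AX-0085 cells. It fell by 1.04 on the log2 scale with IFN-γ (standard error 0.10, edgeR adjusted p = 1.04e-06) and had a change of -0.01 (standard error 0.10, edgeR adjusted p = 0.95) with AX-0085. Levels of ORC6 were 36.6 and 33.8 CPM without either agent, 11.6 and 12.9 after AX-0085, 37.0 and 38.1 after IFN-γ and 16.4 and 15.7 after the pair. ORC6 (ENSG00000091651, chr16:46689643-46698394, plus strand), a subunit of the origin recognition complex, showed the reverse, with IFN-γ libraries at the untreated level and both groups with AX-0085 far below. Its log2 fold change was 0.09 (standard error 0.08, edgeR adjusted p = 0.312) with IFN-γ and -1.52 (standard error 0.09, edgeR adjusted p = 1.51e-08) with AX-0085. CDC6 was measured at 166 and 169.8 CPM without treatment, at 56.9 and 56.5 under AX-0085, at 101 and 98.4 under IFN-γ and at 52.1 and 55.5 under the combination. CDC6, the ATPase that loads MCM, fell by 0.75 with IFN-γ (standard error 0.06, edgeR adjusted p = 8.19e-08) and by 1.57 with AX-0085 (standard error 0.06, edgeR adjusted p = 1.06e-09), so it was nearer to its untreated level with IFN-γ. GMNN, which encodes geminin, the inhibitor of CDT1, fell with each agent. It went from 50.5 and 53.6 CPM to 24.3 and 20.9 with IFN-γ and to 22.8 and 22.2 with AX-0085, changes of -1.21 (standard error 0.09, edgeR adjusted p = 5.43e-08) and -1.21 (standard error 0.09, edgeR adjusted p = 1.4e-07) on the log2 scale. ORC1 fell by 0.94 with IFN-γ and 0.69 with AX-0085, and ORC2 had changes of 0.02 with IFN-γ, which did not pass the test, and -0.22 with AX-0085, which no longer passed it without AX-0085 replicate 2 or untreated replicate 1. Under scaling by library size alone the IFN-γ values of ORC2 and ORC6 turned negative, without passing the test.

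CDC45 and the GINS subunits, which turn the loaded MCM ring into the moving helicase, had the lowest median of the role groups with each agent. All 4 that could be tested were called lower with IFN-γ, with a median of -1.72, and 3 of 4 with AX-0085, with a median of -1.53. For GINS1, the untreated libraries held 104 and 99.9 CPM, the AX-0085 libraries 38.8 and 40.5, the IFN-γ libraries 28.6 and 32.2 and those given both agents 24.4 and 23.8. Levels of GINS2 were 80.1 and 84.7 CPM without either agent, 25.3 and 25.6 after AX-0085, 24.2 and 18.2 after IFN-γ and 18.9 and 19.9 after the pair. In both genes the untreated libraries lay far above every treated one. GINS1 changed by -1.74 (standard error 0.08, edgeR adjusted p = 4.29e-10) with IFN-γ and -1.36 (standard error 0.08, edgeR adjusted p = 1.3e-08) with AX-0085. GINS2 changed by -1.97 (standard error 0.11, edgeR adjusted p = 3.09e-09) and -1.69 (standard error 0.10, edgeR adjusted p = 3.31e-08) in the same order. CDC45 fell by 1.69 and 1.76, and GINS3 by 1.02 and 0.80.

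Among the polymerase and primase genes, IFN-γ lowered the catalytic subunit of polymerase δ most. All 6 fell with each agent, 4 of them called with IFN-γ and 2 with AX-0085, with medians of -1.39 and -0.76. POLD1 was measured at 85.6 and 101 CPM without treatment, at 44.2 and 41.5 under AX-0085, at 16.3 and 15.2 under IFN-γ and at 26.9 and 27.6 under the combination. The 4 groups did not overlap, and the IFN-γ libraries were the lowest. POLD1 changed by -2.57 (standard error 0.09, edgeR adjusted p = 7.85e-11) with IFN-γ and by -1.12 (standard error 0.09, edgeR adjusted p = 2.41e-07) with AX-0085. For POLE, the untreated libraries held 95.7 and 87.3 CPM, the AX-0085 libraries 60.2 and 61.2, the IFN-γ libraries 53.2 and 52.2 and those given both agents 57.2 and 58.0. POLE, the catalytic subunit of the leading-strand polymerase ε, thus moved less, by -0.80 (standard error 0.07, edgeR adjusted p = 2.1e-07) with IFN-γ and -0.59 (standard error 0.07, edgeR adjusted p = 7.3e-06) with AX-0085. POLE2, its second subunit, fell by 2.05 and 1.46. PRIM1, the catalytic subunit of primase, went from 31.9 and 32.7 CPM to 24.2 and 24.6 under AX-0085 and 10.9 and 10.2 under IFN-γ, a fall of 0.40 with AX-0085 and 1.62 with IFN-γ. POLD3 went the other way round, with a fall of 0.82 under AX-0085 and of 0.46 under IFN-γ. POLA1, the catalytic subunit of polymerase α, fell by 0.71 and 1.17 in that order.

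The RFC clamp loader, which opens the PCNA ring, had the smallest median change of the role groups with IFN-γ. All 5 subunits passed the test as lower with each agent, with medians of -0.72 with IFN-γ and -0.96 with AX-0085, yet none was called with IFN-γ and 1, RFC5, with AX-0085. Levels of RFC5 were 82.2 and 80.6 CPM without either agent, 32.5 and 33.4 after AX-0085, 47.1 and 45.5 after IFN-γ and 32.8 and 32.7 after the pair. RFC5 changed by -0.81 (standard error 0.07, edgeR adjusted p = 1.81e-07) with IFN-γ and -1.30 (standard error 0.07, edgeR adjusted p = 8.86e-09) with AX-0085, with the IFN-γ libraries above both groups that had received AX-0085. RFC1, the large subunit, went from 79.7 and 75.7 CPM to 54.4 and 56.6 with IFN-γ and 66.6 and 65.0 with AX-0085, changes of -0.48 (standard error 0.06, edgeR adjusted p = 1.73e-05) and -0.24 (standard error 0.06, edgeR adjusted p = 0.00618) on the log2 scale. The AX-0085 change of RFC1 no longer passed the test without AX-0085 replicate 2 or untreated replicate 1.

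PCNA, the sliding clamp, had the highest level per kilobase of all members, 291 CPM per kb in untreated cells, ahead of TK1 at 149 and MCM7 at 119. PCNA was measured at 396 and 421 CPM without treatment, at 218 and 213 under AX-0085, at 165 and 143 under IFN-γ and at 176 and 174 under the combination. The IFN-γ libraries were the lowest, and PCNA changed by -1.41 (standard error 0.07, edgeR adjusted p = 1.05e-09) with IFN-γ and by -0.92 (standard error 0.07, edgeR adjusted p = 1.63e-07) with AX-0085. For LIG1, the untreated libraries held 95.7 and 96.7 CPM, the AX-0085 libraries 54.6 and 56.1, the IFN-γ libraries 12.4 and 10.2 and those given both agents 31.5 and 30.8. LIG1 (ENSG00000105486, chr19:48115445-48170603, minus strand), the ligase that joins Okazaki fragments, was lower with IFN-γ than in any other group without overlap. Its log2 fold change was -3.10 (standard error 0.09, edgeR adjusted p = 1e-11) with IFN-γ, second in size among the members, and -0.80 (standard error 0.08, edgeR adjusted p = 2.09e-06) with AX-0085. DNA2, a nuclease and helicase that trims long flaps, fell by 1.39 and 1.05.

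The 3 subunits of RPA, which bind single-stranded DNA as one complex, did not move together with IFN-γ. Levels of RPA1 were 283 and 297 CPM without either agent, 213 and 202 after AX-0085, 126 and 131 after IFN-γ and 177 and 171 after the pair. RPA2 was measured at 59.4 and 63.2 CPM without treatment, at 36.0 and 34.9 under AX-0085, at 72.5 and 66.7 under IFN-γ and at 42.1 and 45.0 under the combination. RPA1 was lowest in the IFN-γ libraries, whereas RPA2 was highest there. RPA1 changed by -1.17 (standard error 0.06, edgeR adjusted p = 1.18e-09) with IFN-γ and -0.48 (standard error 0.06, edgeR adjusted p = 1.13e-05) with AX-0085. RPA3, which went from 60.5 and 59.0 CPM to 28.6 and 23.6 under IFN-γ, changed by -1.20 (standard error 0.10, edgeR adjusted p = 1.27e-07) and, with AX-0085, by -0.78 (standard error 0.09, edgeR adjusted p = 1.26e-05). RPA2 rose with IFN-γ by 0.18 (standard error 0.07, edgeR adjusted p = 0.0424) and fell by 0.79 with AX-0085, but its rise did not pass the test when counts were scaled by library size alone, with the replicate number as a block, or without untreated replicate 1 (adjusted p = 0.0986 by edgeR) or IFN-γ replicate 1 (adjusted p = 0.157). It also missed the test narrowly without either AX-0085 library or without replicate 2 of both agents (between 0.0531 and 0.0557).

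The genes of deoxynucleotide supply fell in every case. RRM1 and RRM2 encode the subunits of ribonucleotide reductase, TYMS thymidylate synthase and TK1 thymidine kinase. For RRM2, the untreated libraries held 334 and 355 CPM, the AX-0085 libraries 85.4 and 89.3, the IFN-γ libraries 120.0 and 123 and those given both agents 61.2 and 63.3. Levels of TK1 were 256 and 294 CPM without either agent, 102 and 93.0 after AX-0085, 49.3 and 41.0 after IFN-γ and 62.2 and 64.3 after the pair. RRM1 was measured at 239.9 and 255 CPM without treatment, at 129 and 129.9 under AX-0085, at 66.6 and 70.4 under IFN-γ and at 74.5 and 77.7 under the combination. RRM2 was lower with AX-0085 than with IFN-γ, and TK1 and RRM1 were lower with IFN-γ. RRM2 changed by -1.50 (standard error 0.06, edgeR adjusted p = 9.47e-11) with IFN-γ and -1.98 (standard error 0.06, edgeR adjusted p = 1.54e-10) with AX-0085. TK1 changed by -2.61 (standard error 0.09, edgeR adjusted p = 5.21e-11) and -1.50 (standard error 0.09, edgeR adjusted p = 1.82e-08). TYMS fell by 1.21 with IFN-γ and 1.19 with AX-0085, and RRM1 by 1.85 and 0.94. With IFN-γ all 4 were called lower, and with AX-0085 3 of them, RRM1 being short of the fold.

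The chromatin genes, CHAF1A and CHAF1B of the histone chaperone CAF-1 and UHRF1, which recognises hemimethylated DNA behind the fork, were called lower with either agent. For UHRF1, the untreated libraries held 125 and 137 CPM, the AX-0085 libraries 40.0 and 41.9, the IFN-γ libraries 58.1 and 62.3 and those given both agents 35.4 and 34.9. Levels of CHAF1A were 57.2 and 60.8 CPM without either agent, 21.8 and 22.2 after AX-0085, 20.3 and 19.5 after IFN-γ and 18.8 and 19.3 after the pair. In UHRF1 the IFN-γ libraries lay above both groups with AX-0085. UHRF1 changed by -1.12 (standard error 0.07, edgeR adjusted p = 1.14e-08) with IFN-γ and -1.68 (standard error 0.07, edgeR adjusted p = 1.71e-09) with AX-0085. CHAF1A changed by -1.57 (standard error 0.08, edgeR adjusted p = 1.01e-09) and -1.42 (standard error 0.07, edgeR adjusted p = 8.86e-09), and CHAF1B fell by 1.52 and 1.12.

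The fork protection genes TIMELESS and TIPIN, whose proteins form a dimer, differed with IFN-γ. TIMELESS was measured at 204 and 201 CPM without treatment, at 94.8 and 101 under AX-0085, at 119 and 121 under IFN-γ and at 96.5 and 94.5 under the combination. For TIPIN, the untreated libraries held 35.0 and 37.3 CPM, the AX-0085 libraries 18.0 and 18.3, the IFN-γ libraries 37.8 and 35.1 and those given both agents 21.3 and 19.3. TIMELESS was lower in the IFN-γ libraries than in untreated cells without overlap, and TIPIN overlapped. TIMELESS changed by -0.75 (standard error 0.06, edgeR adjusted p = 5.5e-08) with IFN-γ and -1.05 (standard error 0.06, edgeR adjusted p = 9.38e-09) with AX-0085. TIPIN had a value of 0.01 (standard error 0.08, edgeR adjusted p = 0.923) with IFN-γ, which was negative under scaling by library size alone, and fell by 0.99 with AX-0085. FAM111B, a protease gene expressed in S phase, had the largest change of all members. Levels of FAM111B were 33.8 and 31.8 CPM without either agent, 11.3 and 10.7 after AX-0085, 1.43 and 1.61 after IFN-γ and 5.08 and 4.59 after the pair. FAM111B (ENSG00000189057) lies at chr11:59107185-59127412 on the plus strand and overlaps no other exon. In raw counts its values were 1023 and 780 without treatment, against 27 and 40 under IFN-γ. The change was -4.42 (standard error 0.13, edgeR adjusted p = 8.56e-12) with IFN-γ and -1.58 (standard error 0.09, edgeR adjusted p = 1.76e-08) with AX-0085, and the 4 groups did not overlap.

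When cells already treated with IFN-γ also received AX-0085, the replication genes as a group stayed near their level with IFN-γ alone. Against IFN-γ alone, 1 of the 45 was called lower and 2 higher, where 8.28% of all genes were called lower and 16.5% higher. By the adjusted p alone, 16 fell and 12 rose, against 32.8% and 33.7% of all genes, and 17 did not pass the test. Libraries with both agents lay below both IFN-γ libraries in 22 members and above them in 16, where 40.0% of all genes lay below and 42.6% above. With scaling by library size alone the split was 11 lower and 13 higher, and no member that passed the test changed sign under that scaling, RLE size factors or DESeq2. The median of the members was -0.07, and 0.0554 under scaling by library size alone, against 0.03 over all genes. The polymerase and primase group had a median of 0.22, with 3 of 6 higher and none lower, and the CDC45 and GINS group one of -0.29, with 3 of 4 lower and none higher. Of the 28 members that passed the test, 9 did not when some single library of the IFN-γ group or of the group with both agents was left out, or, for RRM1, also an AX-0085 library. They were GINS3, MCM4, MCM5, ORC1, PCNA, POLE2, RFC2, RRM1 and TYMS, all with changes under 0.33 in size.

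Among the members that rose when AX-0085 was added, the called ones were FAM111B, at 1.67 (standard error 0.16, edgeR adjusted p = 8.94e-07), and LIG1, at 1.47 (standard error 0.09, edgeR adjusted p = 1.57e-08). POLD1 followed at 0.79 (standard error 0.10, edgeR adjusted p = 1.02e-05). In each of the 3 the libraries with both agents lay above those with IFN-γ alone and below those with AX-0085 alone. CDT1 rose by 0.78, to 39.6 and 42.6 CPM, or 83.6% of the untreated mean, the highest percentage among the members called lower with IFN-γ. PRIM1 rose by 0.61, TK1 by 0.49 and RPA1 by 0.44. This comparison and that of IFN-γ with untreated cells share the IFN-γ libraries.

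The members that fell further when AX-0085 was added were led by ORC6, the called one, at -1.22 (standard error 0.08, edgeR adjusted p = 3.45e-08). RRM2 followed at -0.96 (standard error 0.06, edgeR adjusted p = 1.15e-08) and CDC6 at -0.89 (standard error 0.06, edgeR adjusted p = 2.81e-08). With RLE size factors or with DESeq2, RRM2 was called as well. TIPIN fell by 0.84, UHRF1 by 0.78, MCM7 by 0.77, CDC45 by 0.75 and RPA2 by 0.68. In ORC6, TIPIN and RPA2 the IFN-γ libraries were at or above the untreated level, while the libraries with both agents lay near those with AX-0085 alone. ORC6 is a case of this, with 16.4 and 15.7 CPM with both agents and 11.6 and 12.9 with AX-0085 alone.

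**Figure D3:**
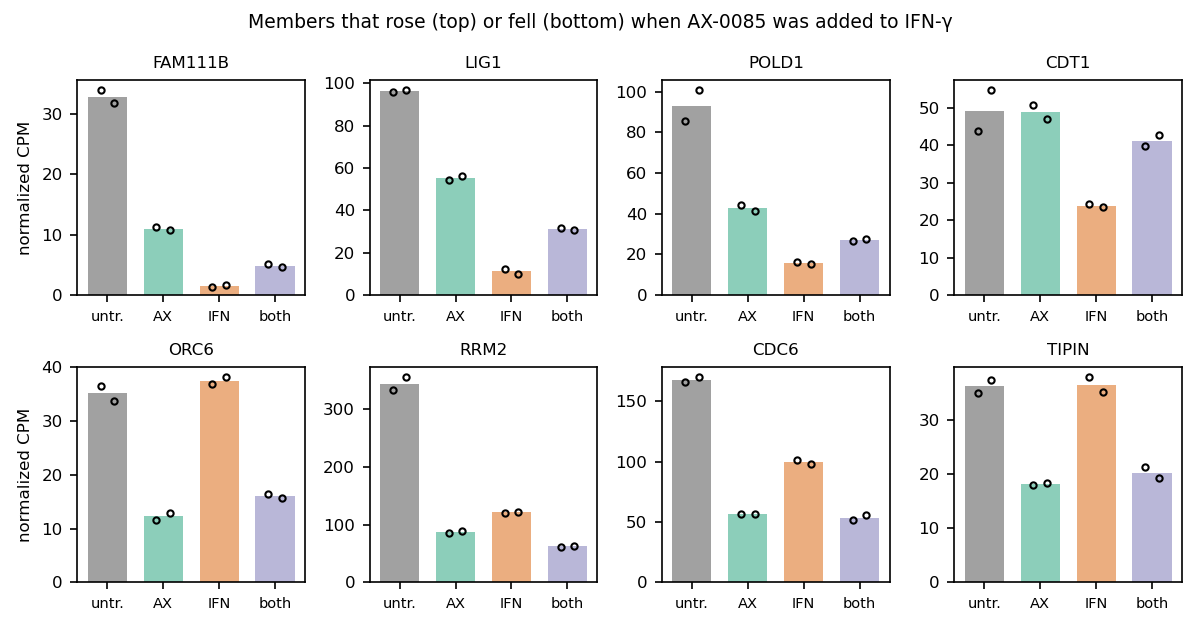
CPM (y axis) of 8 members in untreated cells (untr.), AX-0085 (AX), IFN-γ (IFN) and both agents, with bars for means and circles for the 2 libraries. In FAM111B, LIG1, POLD1 and CDT1 the IFN-γ bar is the lowest, and in ORC6 and TIPIN it stands at the untreated level and the 2 groups with AX-0085 are low.

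Against AX-0085 alone, cells with both agents differed little in these genes. FAM111B was the only member called, lower at -1.17 (standard error 0.11, edgeR adjusted p = 6.75e-06), where 1.73% of all genes were called lower and 1.79% higher. The call of FAM111B ended when it was tested against a 2-fold change with glmTreat. By the adjusted p alone 24 members fell and 4 rose, against 17.4% and 17.3% of all genes, with a median of -0.23. The groups did not overlap in 32 members that were lower and 7 that were higher, where the shares of all genes were 35.6% and 35.1%. LIG1, RRM1 and GINS1 were the next in size, at -0.83, -0.77 and -0.72, and the 4 that rose were ORC6, RFC4, POLD3 and RPA2, by between 0.29 and 0.39. Of these 28 small changes, 16 no longer passed the test when a single library was left out, most often one of the AX-0085 group or of the group with both agents. All 4 CDC45 and GINS genes and all 4 nucleotide supply genes were lower with both agents than with AX-0085 alone. Against untreated cells, both agents together left 32 of 45 called lower and none higher, against 7.23% and 7.51% of all genes. All 45 lay below untreated cells without overlap, as did 39.1% of all genes. By the adjusted p 44 fell, against 28.8% of all genes. The median was -1.28 over the members and 0.009 over all genes. The member that did not pass the test was ORC2 at -0.07 (standard error 0.07, edgeR adjusted p = 0.395). Of the 32 calls, those of MCM2 and PRIM1, at -1.01 each, ended without untreated replicate 2, IFN-γ replicate 2 or 1 library of both agents, and PRIM1's also without untreated replicate 1, with values between -0.95 and -0.99. The fall of CDT1, at -0.26 (standard error 0.10, edgeR adjusted p = 0.0386), no longer passed the test without either AX-0085 library, IFN-γ replicate 2, either library of both agents or untreated replicate 2, where it was -0.09.

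Whether AX-0085 acted on these genes in the same way with and without IFN-γ was tested by the interaction term, the log2 fold change of AX-0085 in IFN-γ-treated cells minus that in cells without IFN-γ. It was positive in all 45 genes, and in 7910 of the 15066 genes tested. It passed the test in 40, where 26.7% of all genes passed it with a positive sign, and 21 were called, against 12.1% of all genes, while none was called with a negative sign, against 6.46%. The number called was 10 with glmTreat against a 2-fold change, 17 with DESeq2 or RLE size factors and 25 with library size alone. The median was 0.98 over the members and 0.05 over all genes. A positive term was not particular to the members. In the mitosis list described below it was positive in all 29 genes tested and passed the test in 26, with 7 called and a median of 0.74. Of 45 replication partners, also described below, 29 passed with a positive sign and 7 with a negative sign (median 0.62). Among all genes 26.7% and 23.6% did so. Among the members, the values were largest in FAM111B (3.25), LIG1 (2.27), TK1 (1.99) and POLD1 (1.91). The 5 members that did not pass were ORC2 (0.13), ORC6 (0.30), RPA2 (0.11), TIPIN (0.15) and MCM8 (0.43), of which ORC6, RPA2 and TIPIN fell with AX-0085 in either setting. Seen from the other side, the log2 fold changes of the single agents summed to a median of -2.32, while both agents together gave -1.28. In each gene the change with both minus that sum is the interaction term itself. That the change with both was smaller in size than the sum in all 45 therefore restates the positive sign and is no separate support. Of the 21 calls, 6 lay at the fold threshold, between 1.01 and 1.11, and ended when a single library was left out, in CDC45, DNA2, GINS1, PCNA, PRIM1 and RRM2, with values between 0.92 and 1.00. PCNA's ended without IFN-γ replicate 2 alone (0.99), and each of the others without any one of 4 libraries, 1 from each group. RFC1, at 0.30, no longer passed the test without AX-0085 replicate 2, untreated replicate 1 or either library with both agents (edgeR adjusted p between 0.0532 and 0.0867).

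**Figure D4:**
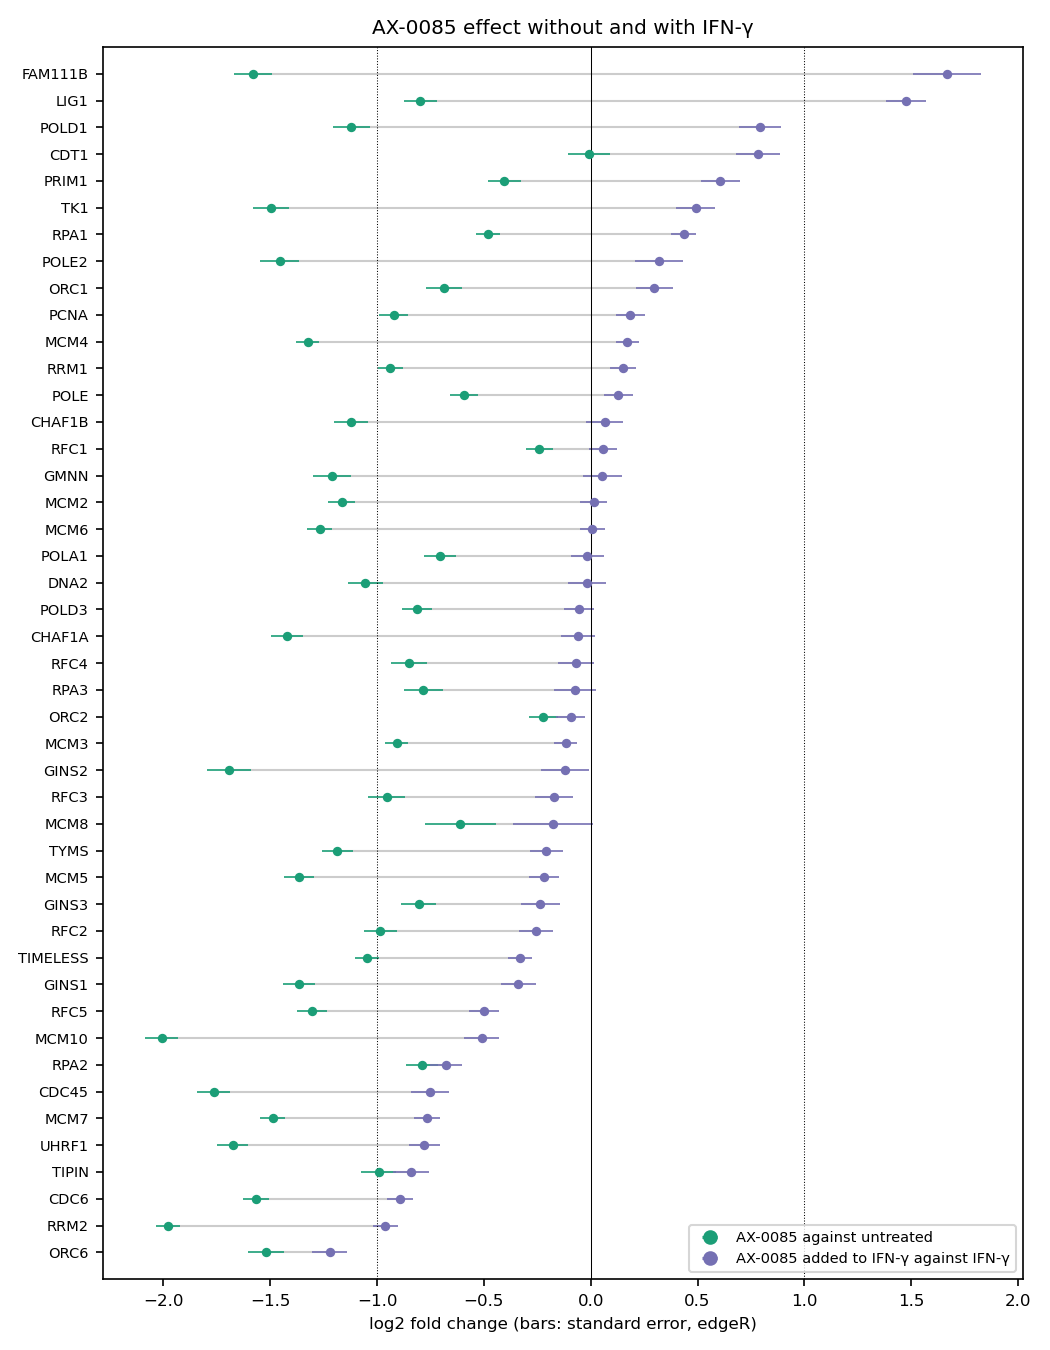
The log2 fold change (x axis, bars for the standard error) of AX-0085 without IFN-γ and of AX-0085 added to IFN-γ for the 45 members tested (y axis), ordered by the latter, with dotted lines at a 2-fold change. Every member lies further right with IFN-γ than without, from FAM111B at 1.67 against -1.58 to ORC6 at -1.22 against -1.52.

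Members with and without an E2F match are set side by side as a description. The 20 tested genes with a match had a median of -1.08 on the log2 scale with IFN-γ and 14 calls, and the 18 with a window but no match had -1.34 and 10 calls. With AX-0085 the medians were -1.08 in each, with 10 calls in each. LIG1 and PCNA, whose matches are shown above, were among the genes lower with IFN-γ than with AX-0085, MCM6 fell by 1.37 and 1.27, and CDT1 carries a match and did not fall with AX-0085. Among genes without a match in these windows were POLD1, RRM2, TK1 and MCM10.

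Other genes of replication, in a list of 48 partners of the members chosen for their roles, were set beside them. Of 45 tested, 15 were called lower and 2 higher with IFN-γ (median -0.63), against 17.2% and 10.3% of all genes. With AX-0085, 19 were called lower and none higher (median -0.74), against 5.62% and 6.41%. On adding AX-0085 to IFN-γ, 3 were called lower and none higher (median -0.22), and neither count exceeded the shares of all genes, 8.28% and 16.5%. The largest falls with IFN-γ were those of CCNE2, the S-phase cyclin E2, at -3.06 (standard error 0.25, edgeR adjusted p = 1.4e-07), CLSPN, the checkpoint adaptor claspin, at -2.36 (standard error 0.09, edgeR adjusted p = 1.32e-10), and the transcription factor E2F1 at -2.31 (standard error 0.08, edgeR adjusted p = 4.23e-11). The value of CCNE2 rests on 11 and 26 raw counts in the IFN-γ libraries, and 50.2% of its exon bases lie inside other genes. It lay between -3.54 and -2.73 when single libraries were left out. E2F1 was measured at 63.9 and 64.9 CPM without treatment, at 22.0 and 21.6 under AX-0085, at 12.4 and 13.5 under IFN-γ and at 19.3 and 19.1 under the combination. The 2 that were called higher with IFN-γ were CTPS1, which makes CTP, and the topoisomerase TOP1. For CTPS1, the untreated libraries held 196 and 205 CPM, the AX-0085 libraries 57.1 and 53.3, the IFN-γ libraries 647 and 599 and those given both agents 70.3 and 83.1. Levels of TOP1 were 42.8 and 46.4 CPM without either agent, 26.6 and 27.2 after AX-0085, 107 and 117 after IFN-γ and 30.3 and 33.8 after the pair. No member behaved in this way, with a call higher with IFN-γ and a call lower on adding AX-0085. CTPS1 changed by -3.02 (standard error 0.08, edgeR adjusted p = 7e-12) and TOP1 by -1.81 (standard error 0.08, edgeR adjusted p = 6.75e-10) when AX-0085 was added, and CDC25A, the phosphatase that activates S-phase CDKs, by -1.24 (standard error 0.10, edgeR adjusted p = 1.54e-07).

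A list of 30 genes of G2 and mitosis, of which 29 were tested, was set beside the members as the other wave of cell cycle transcripts. It ranked the agents differently. With AX-0085, 26 of 29 were called lower (median -1.47), against 5.62% of all genes. With IFN-γ 4 were (median -0.46), a count that did not exceed the 17.2% of all genes called lower. By the adjusted p 25 fell with IFN-γ, against 36.0% of all genes. In CPM the mitosis list summed to 5049 and 4987 in untreated cells, against 1800 and 1875 under AX-0085, 3666 and 3596 under IFN-γ, and 2235 and 2233 under the combination. The mitosis sum with IFN-γ thus lay well above that with AX-0085, whereas the sums of the replication genes in the 2 single treatments were close. KIF20A, a kinesin of cytokinesis, had the largest fall with IFN-γ of this list at -2.33 (standard error 0.07, edgeR adjusted p = 8.84e-12), followed by ANLN at -1.25 (standard error 0.05, edgeR adjusted p = 3.03e-10) and MAD2L1 at -1.23 (standard error 0.08, edgeR adjusted p = 1.31e-08). Upon adding AX-0085 to IFN-γ, 5 mitosis genes were called lower and none higher (median -0.65), against 8.28% and 16.5% of all genes. They were led by ECT2 at -1.56 (standard error 0.08, edgeR adjusted p = 2.04e-09), KIF23 at -1.20 (standard error 0.06, edgeR adjusted p = 1.02e-09) and TPX2 at -1.10 (standard error 0.06, edgeR adjusted p = 2.91e-09). Against AX-0085 alone, both agents left 3 mitosis genes lower and 16 higher by the adjusted p, where among the members 24 were lower and 4 higher. The shares among all genes were 17.4% lower and 17.3% higher. The difference between the lists was not tested.

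**Figure D5:**
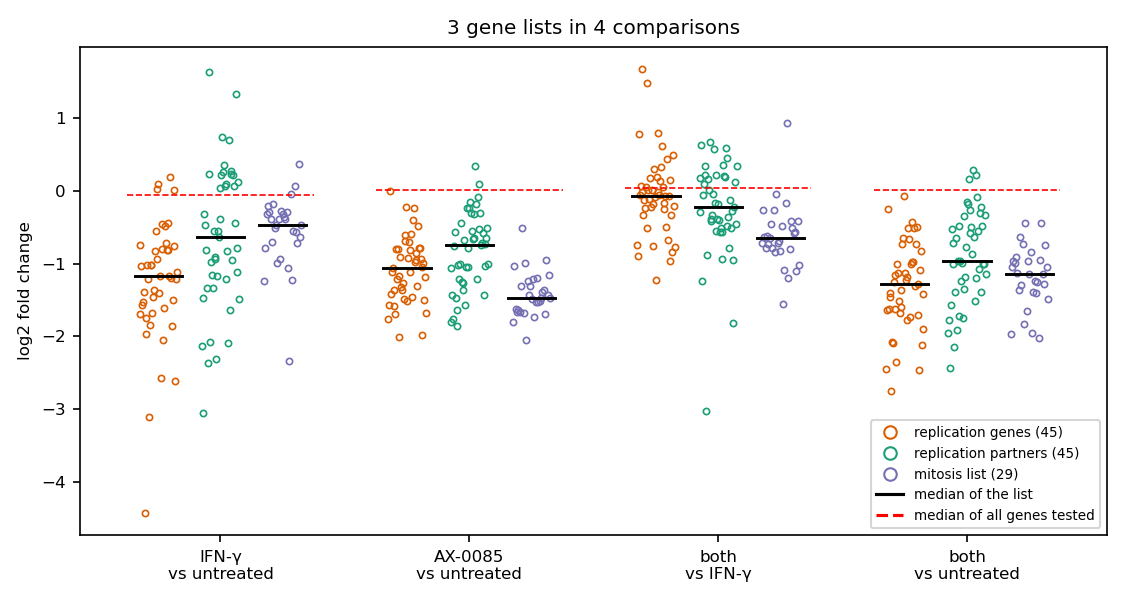
Log2 fold changes (y axis) of the 45 replication genes, 45 replication partners and 29 mitosis genes tested, in 4 comparisons (x axis), with a bar at the median of each list and a dashed line at the median of all genes tested. With IFN-γ the replication genes have the lowest median (-1.17, against -0.46 in the mitosis list), and with AX-0085 the mitosis genes do (-1.47, against -1.05).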

How the data were processed

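Per the labels and the study's methods, stranded mRNA libraries of A549 cells were trimmed with Trim Galore 0.6.7 and mapped to GRCh38 with STAR 2.7.9a. The authors counted reads per gene with featureCounts and deposited the whole-number counts as they were. Every library column entered the work.

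Counts were filtered (filterByExpr), scaled by TMM and tested with the quasi-likelihood test of edgeR 4.0.16 (R 4.3.3) in a single fit of all 8 libraries by group, without covariates. P-values were Benjamini-Hochberg-adjusted over all 15066 genes tested, and a call required that this p be under 0.05 and the log2 change exceed 1 in size. The standard error is the log2 fold change divided by the root of the F statistic. The procedure was tested on simulated data. No set test was run, and lists are described by counts and medians.

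Identifiers were matched to GENCODE 44 (60463 of 60664), which gave symbols, coordinates and overlaps. Levels per kilobase use exon bases outside other genes' spans, joined over all annotated transcripts of a gene. Promoters came from RefSeq.

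The members, the gene lists, the markers and the tests were chosen with earlier results of these data known. All members may be named. Full statistics are given for the member of each role group with the highest mean CPM and the one with the largest IFN-γ change, and, for AX-0085 added to IFN-γ, for called members and the 3 largest changes each way. The full statistics of CDT1, ORC6, RPA2 and TIPIN against untreated cells, of CDT1 and ORC2 with both agents, and of FAM111B with both agents against AX-0085 were added after their values were seen. From the partner and mitosis lists, up to 3 called genes with the largest changes in each of these 2 comparisons are named.

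Alternatives were DESeq2 1.42.0, RLE size factors, library size alone, filters of at least 1 count or of at least 10 counts in every library, the adjusted p alone, glmTreat against a 2-fold change, a fit of the compared groups by themselves, the replicate number as a block, and leaving out each library.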

Additional observations from a re-analysis of the deposited data

Results flagged for a closer look

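For 21 replication genes, the ones with the highest mean CPM or the largest IFN-γ change in each role group, the effect of AX-0085 in IFN-γ-treated cells differed from its effect without IFN-γ, as tested by the interaction term of the model (edgeR's quasi-likelihood test, Benjamini-Hochberg adjustment over all genes). In each the difference was positive, so that AX-0085 lowered the gene less, or raised it, where IFN-γ was present. The IFN-γ change by which some of these genes were chosen enters the term with its sign reversed. Choosing the largest falls with IFN-γ thus favours positive values, and the sign in these genes is no separate support. The term was positive in all 45 members tested, and in 7910 of the 15066 genes tested in all. The difference in log2 fold change was 3.25 in FAM111B (standard error 0.18, adjusted p = 2.11e-08), 2.27 in LIG1 (0.12, 1.36e-08), 1.99 in TK1 (0.13, 6.13e-08) and 1.91 in POLD1 (0.13, 1.16e-07). These 4 fell with AX-0085 alone and rose when it was added to IFN-γ. Among genes of the helicase and its activation it was 1.57 in GINS2 (0.15, 2.79e-06), 1.50 in MCM4 (0.08, 1.17e-08), 1.50 in MCM10 (0.11, 3.18e-07), 1.02 in GINS1 (0.11, 6.69e-06) and 0.72 in MCM7 (0.08, 1.17e-05). In licensing it was 1.26 in GMNN (0.13, 3.54e-06) and 0.67 in CDC6 (0.08, 2.2e-05). It was 1.36 in CHAF1A (0.11, 5.18e-07), 1.11 in PCNA (0.10, 9.87e-07), 1.02 in RRM2 (0.08, 4.81e-07), 0.92 in RPA1 (0.08, 1.15e-06) and 0.90 in UHRF1 (0.10, 9.83e-06). Further values were 0.80 in RFC5 (0.10, 1.86e-05), 0.72 in POLE (0.09, 3.74e-05), 0.72 in TIMELESS (0.08, 7.97e-06), 0.71 in RPA3 (0.14, 0.000792) and 0.30 in RFC1 (0.09, 0.0159). The median was 0.05 over all genes tested and 0.74 over the mitosis list, where the term was positive in all 29 genes tested. All 4 groups enter this term, so an error in any group mean enters it too.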

How the results depend on the processing

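Among the counts and medians of the 3 lists, the direction turned in 1 case, the median of the members on adding AX-0085 to IFN-γ, which was 0.0554 with scaling by library size alone. The other values were -0.11 with DESeq2 and with RLE size factors and -0.0136 with at least 10 counts in every library, and 2 members rather than 1 were called lower with DESeq2 or RLE. The members' median with IFN-γ was -1.12 with DESeq2 and RLE, -1.29 with library size alone and -1.22 with the 10-count filter, that with AX-0085 was -1.10 with the 1-count filter, and that of the interaction was 1.10 with library size alone.

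With the adjusted p alone, members counted as lower or higher were 1 higher with IFN-γ, 44 lower with AX-0085, 16 lower and 12 higher on adding AX-0085 to IFN-γ, 24 lower and 4 higher with both against AX-0085, and 40 higher in the interaction. Partners were 29 lower and 10 higher with IFN-γ, 39 lower and 1 higher with AX-0085, 22 lower and 7 higher when it was added, and 7 lower and 29 higher in the interaction. Mitosis genes were 25 lower and 1 higher with IFN-γ, 25 lower and 1 higher when AX-0085 was added, and 26 higher in the interaction. With glmTreat against a 2-fold change, 10 members were higher in the interaction and 0 were lower with both agents against AX-0085, 10 partners were lower with AX-0085 and 0 lower in the interaction, and of the mitosis genes 2 were lower when AX-0085 was added and 1 higher in the interaction.

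The partners' median with library size alone was -0.75 with IFN-γ, -0.10 when AX-0085 was added and 0.74 in the interaction, where 1 was called lower. The mitosis list had a median of -0.42 with IFN-γ under DESeq2 and RLE, -0.58 with library size alone and -0.43 with only the groups compared. When AX-0085 was added it was -0.69 with DESeq2 and RLE, -0.53 with library size alone (2 called lower, 1 higher), -0.68 with the 1-count filter and -0.61 with the 10-count filter, and in the interaction 0.86 with library size alone, with 11 called higher.

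With each library left out in turn, the members' median lay between -1.17 and -1.11 with IFN-γ, -0.0901 and -0.0334 when AX-0085 was added, -0.22 and -0.19 with both against AX-0085, -1.30 and -1.21 with both against untreated, and 0.90 and 0.99 in the interaction. The mitosis median lay between -0.51 and -0.38 with IFN-γ, -0.70 and -0.64 when AX-0085 was added, and 0.70 and 0.81 in the interaction. The partners' median when AX-0085 was added lay between -0.24 and -0.15, with 0 or 1 called higher. Where a group kept 1 library, it was assumed to vary like the others. The causes of these shifts were not tested.

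The labels do not say whether libraries of the same replicate number share a source. Replicate 1 libraries carry the letter A in their labels and replicate 2 libraries the letter B. The correlations of same-numbered libraries' deviations, between -0.24 and 0.23 over the 6 pairs of groups, were not all above 0.1, which cannot settle the question. With the replicate number as a block, the members' counts were 29 lower with IFN-γ, 24 lower with AX-0085, 1 lower and 2 higher when it was added, 32 lower with both against untreated and 21 higher in the interaction, the same counts as without it, and the IFN-γ median was -1.17. By the adjusted p, the block left 22 rather than 24 members lower with both against AX-0085, 43 rather than 44 lower with both against untreated and 15 rather than 16 lower when AX-0085 was added, and RPA2's rise with IFN-γ did not pass the test. With 2 libraries a group, small changes of single genes rest on few degrees of freedom. Members at few counts are less precise, such as MCM8, which has 96.1% of its exon bases inside another gene.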
